A study of Mus musculus with 6 samples.

Results

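miR-191 and miR-425 are a pair of microRNAs whose hairpins lie side by side on mouse chromosome 9. They were described here through their 4 mature strands, mmu-miR-191-5p, mmu-miR-191-3p, mmu-miR-425-5p and mmu-miR-425-3p. The strands were taken by name from the small-RNA count table, and all 4 were among its 1390 miRNAs. Thymus tissue was taken from C57BL mice that were 5 weeks old. The irradiated group (3 libraries) received X-rays at 6 Gy, given at 800 cGy/min from 40 cm, and was sampled 24 h later. The control group (3 libraries) received no radiation. The labels name no altered gene in either group and give no sex, and nothing in them says that each library is a separate animal, so the p-values measure the spread between these libraries. The title of the series concerns competing RNAs and the PI3K-AKT pathway in the irradiated thymus.

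A microRNA hairpin is cut to a short duplex, and 1 strand of it, the 5p or the 3p strand, is usually retained in the silencing complex while the other is degraded. The retained strand finds target messenger RNAs mainly through its seed, which is bases 2 to 8. miR-191 and miR-425 are expressed in many tissues, blood cells included. miR-191-5p and miR-425-5p have both been used as references against which other microRNAs are scaled in PCR assays.

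The mature strands are shown with the seed in capitals, because the seed decides which microRNAs could act on shared targets. The deposited sequences were identical to those of RefSeq (GRCm38.p6), from which the positions on the plus strand were taken.
mmu-miR-191-5p, chr9:108568325-108568347: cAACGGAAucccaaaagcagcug
mmu-miR-191-3p, chr9:108568367-108568388: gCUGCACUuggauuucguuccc
mmu-miR-425-5p, chr9:108568789-108568811: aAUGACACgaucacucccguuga
mmu-miR-425-3p, chr9:108568830-108568850: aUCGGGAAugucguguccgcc
No seed was shared between members. Of all other miRNAs in the table, mmu-miR-489-3p was the single one with a member's seed, that of miR-425-5p.
mmu-miR-489-3p: aAUGACACcacauauauggcagc
It had 0, 0 and 1 reads in irradiated replicates 1, 2 and 3 and 0, 4 and 0 reads in control replicates 1, 2 and 3, so nearly all reads with this seed were of miR-425-5p. The closest other sequence in the table differed from a member by at least 5 bases in an alignment without gaps.

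The hairpins are shown because they give the order of the strands, which stand in capitals with the loop and flanks in lower case.
Mir191, chr9:108568319-108568392: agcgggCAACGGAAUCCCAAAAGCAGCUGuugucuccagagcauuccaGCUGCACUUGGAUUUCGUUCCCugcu
Mir425, chr9:108568777-108568861: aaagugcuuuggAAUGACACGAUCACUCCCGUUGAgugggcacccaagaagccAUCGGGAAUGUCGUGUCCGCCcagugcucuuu
Both lie on the plus strand and 384 bases separate them. Their predicted folding energies (RNAfold) were −35.0 kcal/mol for Mir191 and −31.7 kcal/mol for Mir425.

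The annotations differ on the gene that holds them. RefSeq places both hairpins inside Dalrd3, named for its anticodon-binding domain, which spans 108567484 to 108572773 on chromosome 9 of GRCm38. GENCODE M21, on the same build, starts Dalrd3 at 108569886, which leaves 1493 bases between Mir191 and that gene and 1024 bases between Mir425 and it. There both hairpins lie in exon 1 of a long noncoding transcript of 4833445I07Rik (108567533 to 108569174), and a shorter transcript of that gene carries Mir191 in its intron. Ndufaf3, which encodes an assembly factor of mitochondrial complex I, lies upstream on the minus strand. GENCODE M21 also lists a miRNA gene, Gm24083, on the minus strand across Mir191. The counts used here are of mature strands and do not show from which transcript the hairpins were cut.

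**Figure D1:**
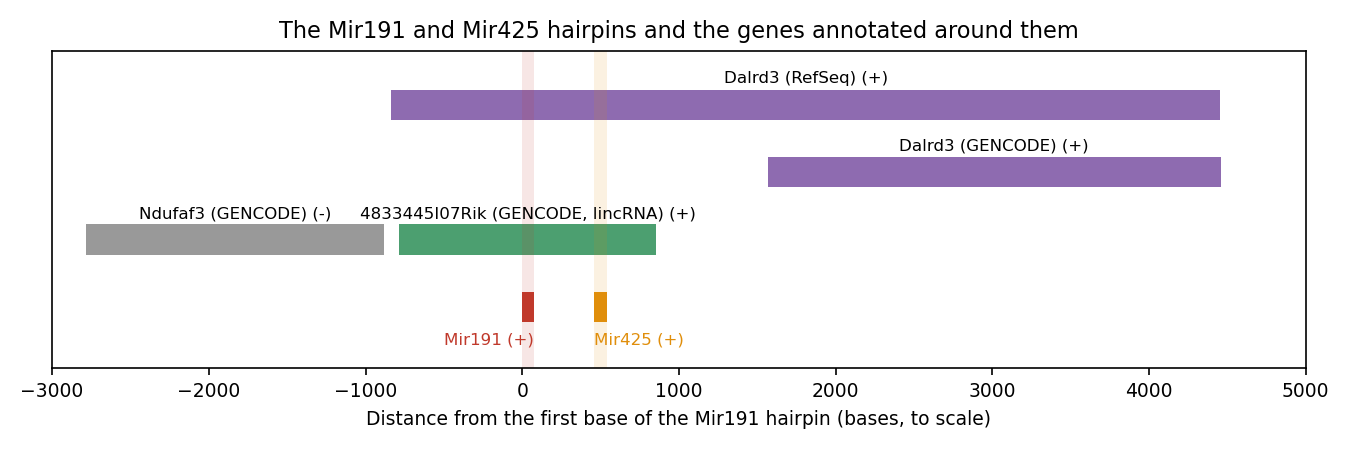
Annotated genes around the hairpins, drawn to scale as the distance in bases from the first base of the Mir191 hairpin, with the strand in parentheses. Both hairpins fall inside Dalrd3 in RefSeq but upstream of Dalrd3, inside 4833445I07Rik, in GENCODE M21.

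Library totals were 8532223 to 9287017 reads in irradiated and 7730641 to 8522928 reads in control libraries, so sequencing depth was similar. The trimmed-mean (TMM) scaling factors were 0.885 to 1.01 in irradiated libraries and 0.823 to 1.39 in control libraries. Levels are given in CPM, read counts relative to the TMM-scaled total of their library. The thymocyte miRNA miR-181a-5p was at 2178 to 4226 CPM in irradiated and at 61687 to 117791 CPM in control libraries, and the thymic epithelial miRNA miR-205-5p at 1410 to 1977 and 616 to 789 CPM, so defining markers of the labelled tissue were present in both groups. Irradiated replicates 2 and 3 stood apart by miRNAs of striated muscle. The 4 listed muscle miRNAs summed to 603, 20130 and 13397 CPM in irradiated replicates 1, 2 and 3, against 203 to 481 CPM in control libraries. The 4 listed red-cell miRNAs summed to 608, 5100 and 2026 CPM in irradiated replicates 1, 2 and 3, against 483 to 730 CPM in control libraries.

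All 4 strands fell after irradiation, by 2.22 to 3.50 times. The 2 dominant strands, miR-191-5p and miR-425-5p, and both of their partners were lower in every irradiated library than in any control library. Falling was common in these libraries: in the edgeR quasi-likelihood test across all 519 tested miRNAs, 33.5% were lower, 27.7% were higher and 61.3% passed in either direction at an adjusted p of 0.05. Groups that did not overlap were seen for 68.6% of the tested miRNAs, 36.6% with irradiated below control. The 4 strands are therefore among many that fell. They also share 1 locus and 1 set of libraries, and are not 4 independent observations.

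miR-191-5p was by far the most abundant of the 4. It stood at 2418, 1679 and 1794 CPM in irradiated replicates 1, 2 and 3, against 4494, 5319 and 6488 CPM in control replicates 1, 2 and 3. The highest irradiated library thus lay below the lowest control library. The log2 fold change was −1.47 ± 0.26 (SE), with an edgeR adjusted p of 0.0010. Its means were 1964 ± 398 CPM in irradiated and 5433 ± 1002 CPM in control libraries (SD, n = 3 each). By read count it ranked 36, 44 and 47 in irradiated replicates 1, 2 and 3, against 30, 24 and 25 in control replicates 1, 2 and 3.

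miR-425-5p, the dominant strand of the second hairpin, had the largest fitted fold change of the 4. It was at 235, 300.3 and 235 CPM in irradiated replicates 1, 2 and 3, and at 667, 1009 and 1022 CPM in control replicates 1, 2 and 3. Control replicate 1 was the lowest control library and still lay above every irradiated one. The log2 fold change was −1.81 ± 0.27 (SE, edgeR adjusted p of 3.6e-04). The means were 257 ± 37.7 CPM in irradiated and 899 ± 201 CPM in control libraries (SD, n = 3 each).

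miR-425-3p, the less abundant strand of that hairpin, varied little within groups. Its levels were 16.8, 17.9 and 17.9 CPM in irradiated replicates 1, 2 and 3, against 50.2, 48.9 and 41.7 CPM in control replicates 1, 2 and 3. The log2 fold change was −1.42 ± 0.26 (SE), with an edgeR adjusted p of 0.0012. These values rest on 129 to 169 reads per irradiated and 340 to 527 reads per control library.

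miR-191-3p was the least abundant of the 4. It was counted with 20, 29 and 33 reads in irradiated replicates 1, 2 and 3 and with 43, 71 and 70 reads in control replicates 1, 2 and 3. Scaled, these were 2.61, 3.46 and 3.50 CPM in irradiated and 6.13, 6.59 and 8.59 CPM in control libraries, so the groups again did not overlap. Counting error alone gives 95% Poisson intervals of 22.7 to 46.3 reads in irradiated replicate 3 and 31.1 to 57.9 reads in control replicate 1, which overlap. The log2 fold change was −1.15 ± 0.33 (SE, edgeR adjusted p of 0.0126). Its call was lost without control replicate 3 (−0.89, edgeR adjusted p of 0.0946) and with upper-quartile scaling (−0.72, edgeR adjusted p of 0.0674), within a range of 0.0141 to 0.0946 over its 14 alternatives.

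**Figure D2:**
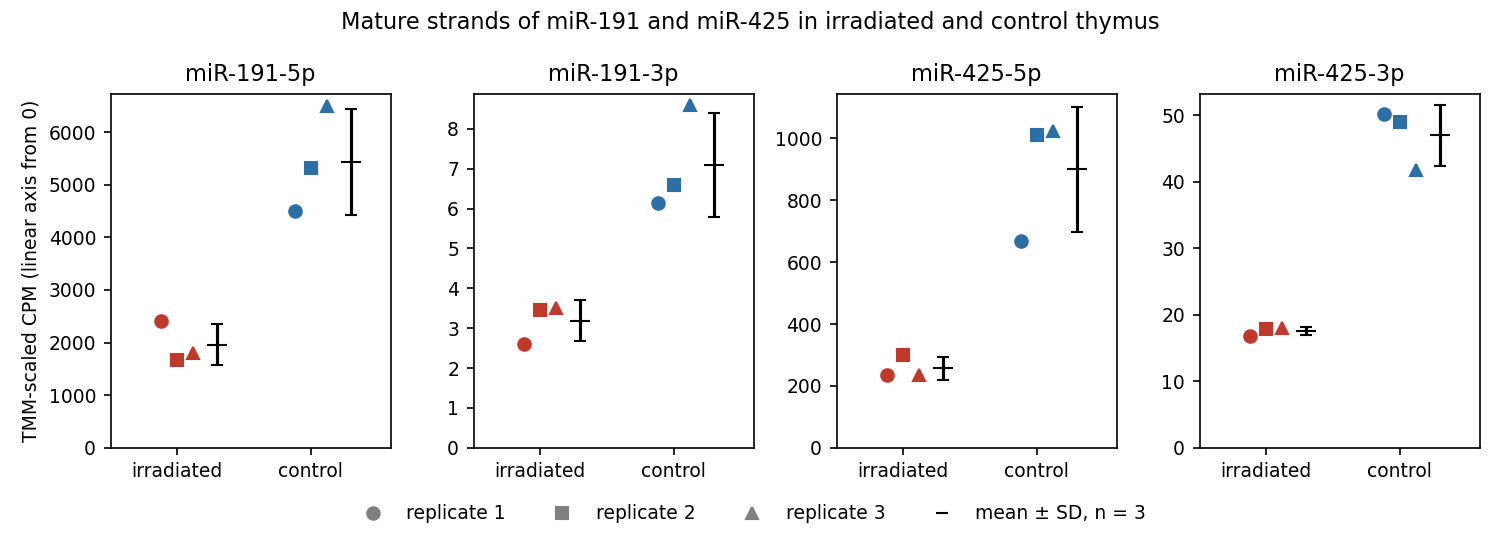
TMM-scaled CPM of each mature strand (linear axes from 0) in 3 irradiated and 3 control libraries, with the mean ± SD. In every panel the 3 irradiated libraries lie below all 3 control libraries, from 1679 to 2418 against 4494 to 6488 CPM for miR-191-5p.

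Most of the miRNAs that fell did so by more than the members. Of the 174 that were lower, 118 fell further than miR-425-5p, 130 further than miR-191-5p, 132 further than miR-425-3p and 146 further than miR-191-3p. These tallies count names. Some names came in pairs with the same level in every library, so not all are separate observations. The shares over all tested miRNAs include such pairs too. In the authors' deposited table the log2 fold changes were −1.38 for miR-191-5p, −1.10 for miR-191-3p, −1.75 for miR-425-5p and −1.36 for miR-425-3p, with adjusted p of 1.9e-04, 0.0392, 2.3e-07 and 1.6e-04 in that order. Those values come from the same libraries and are no separate support.

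The share of all reads uses the library total in place of a TMM factor. It rests on the same counts and is no separate support. The 4 strands together held 0.237%, 0.196% and 0.208% of reads in irradiated replicates 1, 2 and 3, against 0.429%, 0.890% and 0.748% in control replicates 1, 2 and 3. The groups did not overlap. The two-sided exact permutation test gave 0.1, and 6 libraries split evenly can give no smaller p. Control libraries lay further apart by share than after scaling: miR-191-5p held 0.370% of reads in control replicate 1 and 0.742% in control replicate 2, against 4494 and 5319 CPM with TMM.

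Since the median change of all tested miRNAs moved with the scaling (0.01 with TMM, 0.12 with median-of-ratios, −0.13 for unscaled totals, 0.44 by upper quartile), the members were also set against it. miR-191-5p lay 1.45 to 1.52 log2 units below that median under these 4 scalings, and miR-425-5p 1.81 to 1.87 units below it. Scaling shifts nearly all miRNAs alike, so these narrow ranges follow from its construction and are no check of stability. miR-191-5p, miR-425-5p and miR-425-3p passed in all 15 alternative settings other than scaling to miR-191-5p, which is given last. Over those, the log2 fold change ran from −1.72 to −1.01 for miR-191-5p and from −2.07 to −1.37 for miR-425-5p. Without irradiated replicate 2, the library highest in muscle and red-cell miRNAs, the values were −1.15 and −1.72 and both passed.

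**Figure D3:**
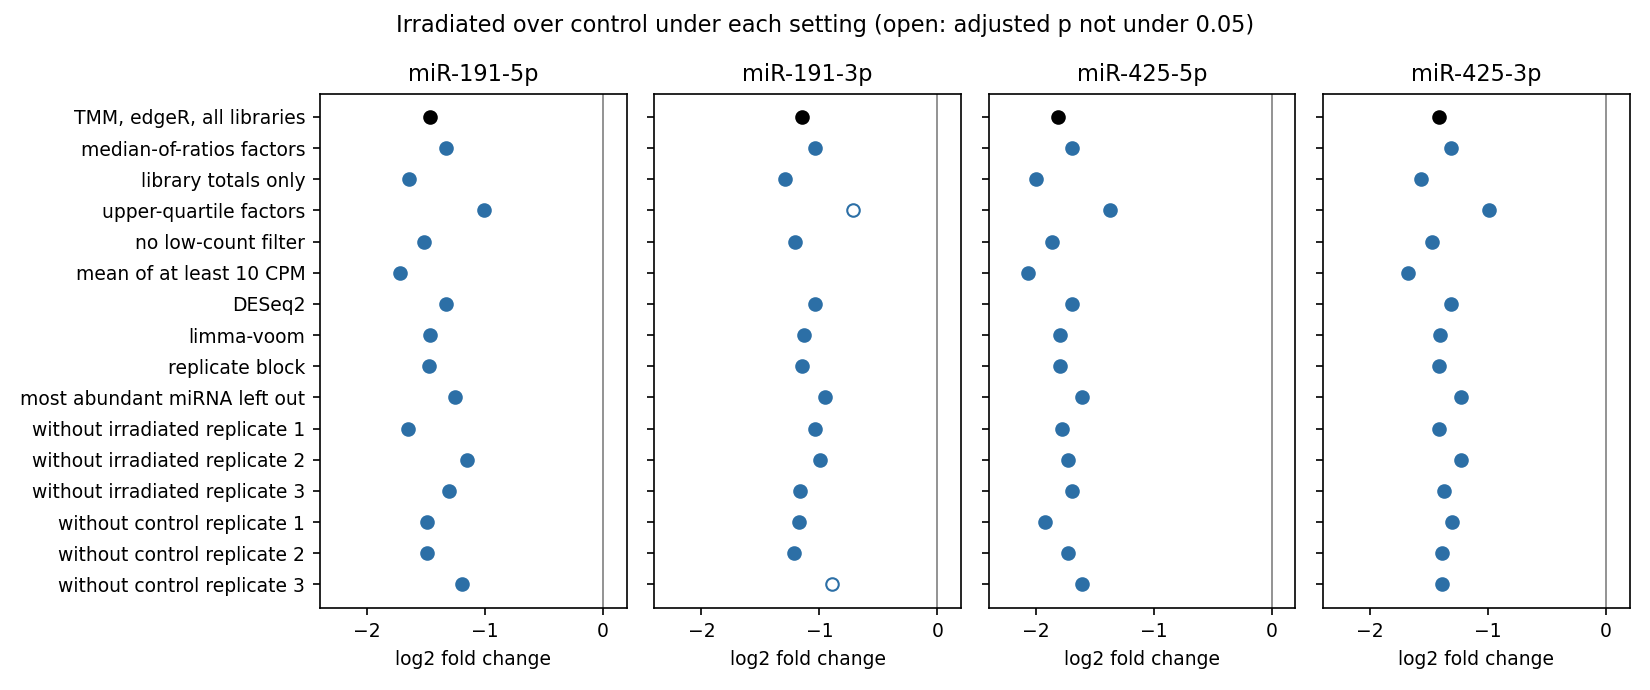
Log2 fold change, irradiated over control, of each strand under each setting (rows), with black for the TMM and edgeR setting and open circles where the adjusted p was not under 0.05. All points lie below 0, and the 2 open circles are both miR-191-3p, which has no value at a mean of at least 10 CPM.

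Whether the strands of 1 hairpin changed alike was asked through the ratio of its 5p to its 3p strand within each library, which does not depend on scaling. Both hairpins gave mostly 5p reads. miR-191-5p made up 99.79% to 99.89% of the reads of its hairpin in irradiated and 99.86% to 99.88% in control libraries. For miR-425-5p the share was 92.9% to 94.4% in irradiated and 93.0% to 96.1% in control libraries. By the log2 ratio, miR-191 stood 10th of 146 hairpins with both strands tested in irradiated libraries and 9th in control libraries, and miR-425 stood 45th and 46th.

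The ratio of miR-191-5p to miR-191-3p was 927, 485 and 512 reads per read in irradiated replicates 1, 2 and 3, against 733, 807 and 756 in control replicates 1, 2 and 3. Irradiated replicate 1 lay above all control libraries and the other 2 irradiated libraries below them. On the log2 scale (prior count 2) the difference was −0.37, with a 95% interval of −1.13 to 0.38 (limma adjusted p of 0.452 over the 146 hairpins). The ratio of miR-425-5p to miR-425-3p was 14.0, 16.8 and 13.1 in irradiated replicates 1, 2 and 3 and 13.3, 20.6 and 24.5 in control replicates 1, 2 and 3. These groups overlapped too, with a difference of −0.39 and an interval of −1.13 to 0.36 (limma adjusted p of 0.436). A shift between strands was not detectable for either hairpin, within these intervals. Of all hairpins 13.7% (20 of 146) passed this test, a number that ran from 0 to 36 when 1 library was left out.

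The 2 hairpins were likewise compared within libraries. There were 10.3, 5.59 and 7.65 reads of miR-191-5p per read of miR-425-5p in irradiated replicates 1, 2 and 3, against 6.74, 5.27 and 6.35 in control replicates 1, 2 and 3. The groups overlapped, with irradiated replicate 1 highest and irradiated replicate 2 inside the control range. The mean log2 ratio was 2.93 ± 0.44 in irradiated and 2.61 ± 0.18 in control libraries (SD, n = 3 each), a difference of 0.32 with an exact permutation p of 0.4. The less abundant strands gave a difference of similar size, 0.31, also with an exact permutation p of 0.4. The larger fold change of miR-425-5p than of miR-191-5p was thus within the spread between libraries.

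**Figure D4:**
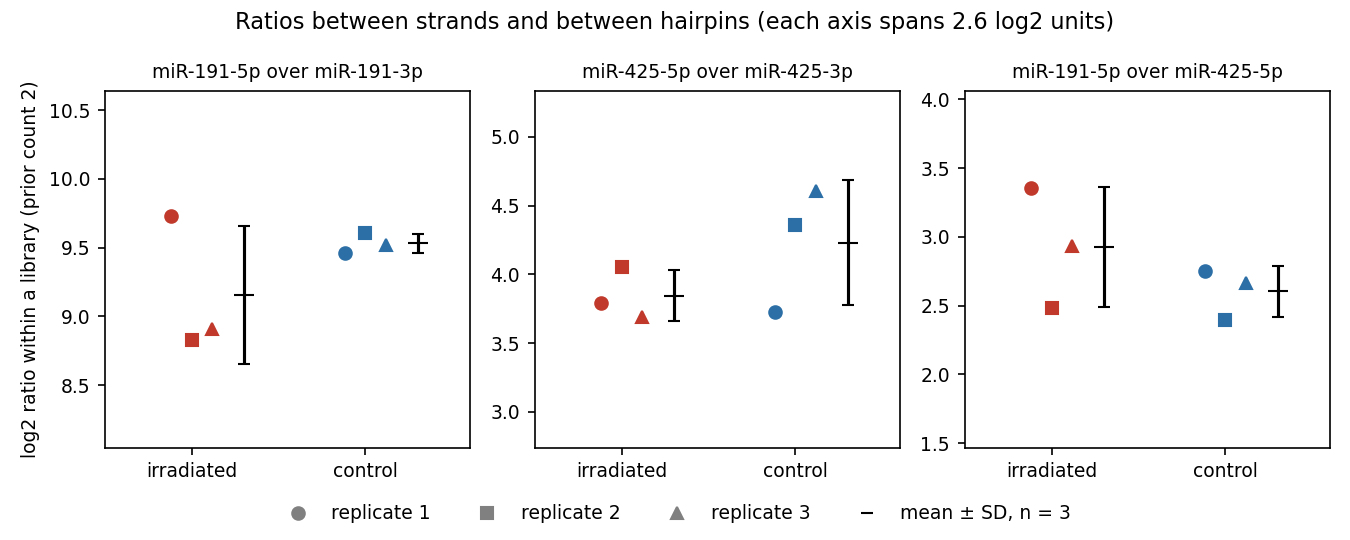
Log2 ratios within each library of miR-191-5p to miR-191-3p, miR-425-5p to miR-425-3p and miR-191-5p to miR-425-5p, with the mean ± SD, on axes that each span 2.6 log2 units. Irradiated and control libraries overlap in all 3 panels.

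The thymus is mostly immature T cells in a framework of epithelial and connective tissue, and lists of miRNAs known from those cell types were read from the same fit. The counts of each list stand beside 33.5% lower and 27.7% higher among all tested miRNAs. Some lists hold both strands of a hairpin, so their counts are not of independent observations. Among 9 miRNAs listed as lymphoid, 6 fell and 3 missed the threshold (median log2 fold change −2.86, against 0.01 over all tested miRNAs). Their summed level was 7357 to 11892 CPM in irradiated and 102931 to 169953 CPM in control libraries. miR-181a-5p, which tunes T-cell receptor signalling in thymocytes, changed by −4.83 ± 0.39 (SE, edgeR adjusted p of 1.8e-05), and miR-128-3p by −5.70 ± 0.36 (SE, edgeR adjusted p of 4.0e-06). Of 10 stromal and vascular miRNAs, 7 were higher and 3 did not pass (median 1.38), with a sum of 227650 to 347066 CPM in irradiated and 97068 to 248191 CPM in control libraries. Its 2 most abundant miRNAs were miR-143-3p of smooth muscle, at 0.73 ± 0.38 (SE, edgeR adjusted p of 0.118), and miR-126a-3p of endothelium, which rose by 2.02 ± 0.26. The other strand of miR-126a, miR-126a-5p, did not pass (0.09 ± 0.23 SE, edgeR adjusted p of 0.768). Of 7 epithelial miRNAs, 4 were higher and 3 did not pass (median 1.32), with a sum of 20678 to 28821 CPM in irradiated and 10191 to 13173 CPM in control libraries. miR-200a-3p was at 0.63 ± 0.25 (SE, edgeR adjusted p of 0.0515) and miR-200b-3p rose by 2.54 ± 0.35. In whole tissue, fewer cells of a type and less miRNA per cell cannot be told apart. The part of these cell types in the change of miR-191 and miR-425 was not tested.

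The 2 dominant strands were also set against those lists within libraries. miR-191-5p exceeded the mean log2 level of the lymphoid list by 2.05, 1.91 and 1.62 in irradiated replicates 1, 2 and 3, against 0.34, 0.67 and 0.73 in control replicates 1, 2 and 3. The groups did not overlap, and the difference was 1.28 log2 units. Relative to the stromal and vascular list it lay at −0.01, −1.01 and −0.43 in irradiated replicates 1, 2 and 3 and at 1.93, 2.48 and 2.54 in control replicates 1, 2 and 3, a difference of −2.80. Relative to the epithelial list the difference was −2.67. For miR-425-5p the 3 differences were 0.96, −3.12 and −2.99. Both 5p strands were thus higher relative to the mean of the lymphoid list and lower relative to the means of the other 2 lists in irradiated libraries. These differences restate the fold changes of the members and lists from the same counts and are no separate support. For all 6 differences the exact permutation p was 0.1 (0.133 with Benjamini-Hochberg adjustment over 8 ratios), and a design of this size cannot pass 0.05. The lymphoid list was not uniform. Scaled to miR-191-5p, 5 of its 9 miRNAs were lower and 3 higher, beside 14.3% lower and 58.9% higher of all tested. The 3 higher were miR-150-5p (1.11), miR-342-3p (0.99) and miR-155-5p (1.39), so miR-191-5p was lower relative to each of these.

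Of the smaller lists, 3 of 4 red-cell miRNAs, 1 of 3 myeloid miRNAs and 3 of 3 tested muscle miRNAs were higher, beside 27.7% of all tested miRNAs. The myeloid share is near that background. The higher red-cell miRNAs were miR-451a and both strands of miR-144, so they are not independent observations. miR-451a changed by 2.74 ± 0.83 (SE, edgeR adjusted p of 0.0264), miR-486a-5p by 0.82 ± 0.37 (0.0792), miR-1a-3p by 5.19 ± 1.24 (0.0101) and miR-133a-3p by 4.85 ± 1.16 (0.0104). The 3 myeloid miRNAs summed to 49.2 to 163 CPM in irradiated and 32.7 to 60.2 CPM in control libraries, with miR-223-3p at 0.59 ± 0.58 (0.388) and miR-223-5p at 1.99 ± 0.37 (0.0014). Leaving out any 1 control library took the red-cell count to 0, and leaving out irradiated replicate 1 or 2 took the myeloid count to 2. Without control replicate 3 the muscle count was 1. miR-191-5p was lowest and miR-425-5p highest among irradiated libraries in replicate 2, the library highest in red-cell and muscle miRNAs.

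The miRNAs whose profiles over the 6 libraries were closest to the members are given as a description, by the root-mean-square distance of centred log2 levels among 310 other miRNAs with a mean of at least 10 CPM. Closest to miR-191-5p was miR-467d-5p at 0.13, which changed by −1.59 ± 0.29 (SE, edgeR adjusted p of 0.0013). It was followed by miR-142a-5p at 0.20, made in blood cells, which changed by −1.39 ± 0.27 (SE, edgeR adjusted p of 0.0018), and then by miR-7a-1-3p, miR-32-5p and miR-211-5p at 0.25 to 0.27. Closest to miR-425-5p was miR-7a-1-3p at 0.12, which changed by −1.80 ± 0.29 (SE, edgeR adjusted p of 5.8e-04), followed by miR-677-5p, miR-30c-1-3p, miR-1198-5p and miR-374c-3p at 0.14 to 0.23. miR-425-5p itself came 9th in nearness to miR-191-5p and miR-425-3p came 7th. In nearness to miR-425-5p, miR-191-5p came 14th and miR-425-3p, the other strand of its hairpin, came 15th.

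Because miR-191-5p and miR-425-5p serve as references in PCR assays, 17 further miRNAs used in that way were listed and read from the same fit. Among the 17, 10 fell, 2 rose and 5 missed the threshold, with a median log2 fold change of −0.80. Of all tested miRNAs, 33.5% were lower and 27.7% were higher. Under the other 3 scalings all 17 kept their sign, with 6 to 10 lower and 2 to 4 higher. The 6 lower and 4 higher were with upper-quartile factors, where 139 of all 519 tested miRNAs were lower and 206 higher. Without control replicate 3, 6 were lower and 9 missed the threshold, beside 140 lower of all 550 then tested. The largest decreases in this list were those of miR-92a-3p (−3.74), which has the seed of miR-25-3p (−3.33), and of miR-93-5p (−2.63), followed by miR-16-5p (−2.48). miR-423-5p (−2.19) and miR-423-3p (−1.87), strands of the same hairpin and so not independent, also fell further than both members. miR-425-5p (−1.81) and miR-191-5p (−1.47) came next, above miR-484 (−1.18), miR-320-3p (−0.99), let-7a-5p (−0.80) and miR-103-3p (−0.69, edgeR adjusted p of 0.0482). Of these last 4, none passed with upper-quartile factors, and let-7a-5p and miR-103-3p did not pass with median-of-ratios factors.

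The 2 that rose were miR-26a-5p (1.35 ± 0.28 SE) and miR-23a-3p (1.09 ± 0.28 SE). The 5 that did not pass were miR-361-5p (−0.59), miR-30c-5p (−0.50), miR-186-5p (0.22), miR-151-5p (0.30) and miR-24-3p (0.45). A p that missed the threshold does not show that these were constant. miR-186-5p had 349 to 417 CPM in irradiated and 302 to 364 CPM in control libraries, so its groups overlapped. With upper-quartile factors miR-186-5p passed as higher (0.66, edgeR adjusted p of 0.0373), and so did miR-24-3p (0.87, edgeR adjusted p of 0.0142). miR-30c-5p spread from 669 to 3212 CPM within the irradiated group alone, against 2339 to 3223 CPM in control libraries.

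What a scaling to miR-191-5p would do was then computed by dividing each library by its miR-191-5p count, a setting chosen after the data were seen. By construction it moves every miRNA up by about the decrease of miR-191-5p. The median log2 fold change of the 518 other tested miRNAs became 1.499, with 305 higher (58.9%) and 74 lower (14.3%), against 144 higher and 174 lower of 519 with TMM. miR-425-5p no longer passed (−0.28, edgeR adjusted p of 0.451). miR-191-3p (0.37) and miR-425-3p (0.04) changed sign and did not pass. Of the 17 further reference miRNAs, 6 changed sign, and the counts became 4 lower and 7 higher.

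**Figure D5:**
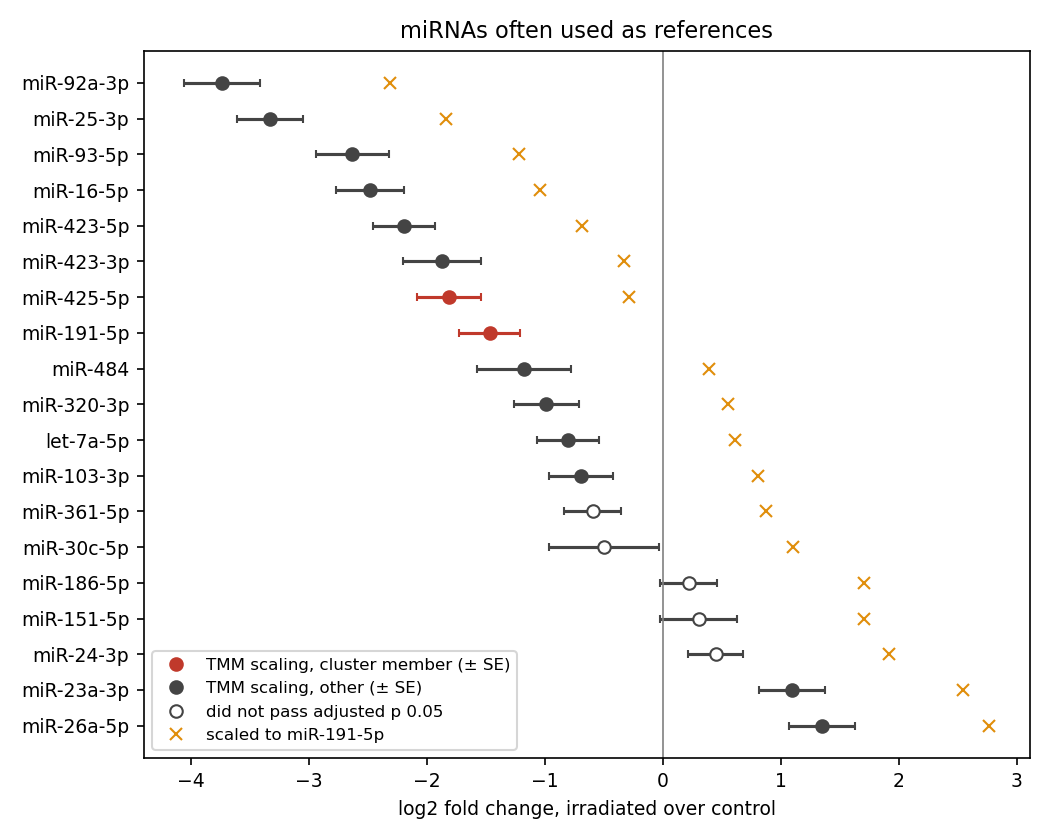
Log2 fold change, irradiated over control, of miR-191-5p, miR-425-5p (red) and 17 other miRNAs used as references (grey), with TMM scaling ± SE and open circles where the adjusted p was not under 0.05, and with scaling to miR-191-5p (crosses). With TMM the values run from −3.74 for miR-92a-3p to 1.35 for miR-26a-5p. Scaling to miR-191-5p shifts all others upward, and miR-191-5p itself has no cross.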

How the data were processed

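Mouse thymus small-RNA libraries were analysed, 3 of the irradiated and 3 of the control group. Per the file headers, the deposited table holds whole-number read counts per mature miRNA. A deposited log2 fold change and p-value of the authors were quoted only where named. Per the submitters' processing notes, DESeq2 1.10.1 was among the tools. Aligner, counter and genome build were not stated in the labels or headers, and the labels call the molecule polyA RNA. The table has 6 further count columns, of samples without labels, which were left out. No pair of replicate libraries agreed within sampling noise.

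Counts were tested with edgeR 4.0.16 (R 4.3.3; TMM factors, filterByExpr defaults, quasi-likelihood test, robust, irradiated over control), with Benjamini-Hochberg adjustment over all 519 tested miRNAs and a threshold of 0.05. These miRNAs include all 4 members. The SE of an edgeR log2 fold change was its absolute value divided by the square root of the quasi-likelihood F statistic. Strand ratios were tested with limma 3.58.1 on log2 CPM (prior count 2) over 146 hairpins, paired by name. Ratios and shares per library were compared with the exact permutation test (two-sided). The scripts were tested on simulated data. There the edgeR step called 40% of 2-fold changes, 95% of 4-fold changes and 0% of unchanged miRNAs. A change near 2-fold can therefore miss the threshold. Poisson intervals cover counting error only, and the intervals of the strand ratios reflect the spread between libraries.

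The members, lists, tests and rules were chosen with earlier results of these data known. Named miRNAs were the members, counted miRNAs that share a seed with one, every listed reference miRNA, the 5 closest profiles to miR-191-5p and to miR-425-5p, and the 2 most abundant of each cell-type list. miR-205-5p and miR-223-5p were named for their role as markers or as the rest of a short list. miR-126a-5p and the strands of miR-144 were named to show strands of a shared hairpin. The ratios to the cell-type lists were added after the data were seen. Alternatives were other scaling factors, other filters, DESeq2 1.42.0, limma-voom, a replicate block, leaving out the most abundant miRNA and leaving out each library.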

Additional observations from a re-analysis of the deposited data

How the results depend on the processing

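miR-191-5p, miR-425-5p and miR-425-3p kept their direction and their call in all 15 alternatives other than scaling to miR-191-5p, and miR-191-3p in 12 of 14. miR-191-3p was weaker with upper-quartile factors (−0.72, adjusted p of 0.0674) and without control replicate 3, and had no value at a mean of at least 10 CPM. Leaving out 1 library gave log2 fold changes of −1.65 to −1.15 for miR-191-5p, −1.21 to −0.89 for miR-191-3p, −1.92 to −1.61 for miR-425-5p and −1.41 to −1.23 for miR-425-3p. Scaling to miR-191-5p, chosen after the data were seen, gave 0.37 for miR-191-3p, 0.044 for miR-425-3p and −0.28 for miR-425-5p, with 305 miRNAs higher, 74 lower, 4 lower in the reference list (whose median became 0.58), 7 higher in the epithelial list and 3 higher in the myeloid list. These follow from its construction. A minimum mean of 10 CPM gave 87 higher miRNAs among 313 tested. The number of hairpins whose strand ratio passed was 12 at that minimum, and 0 to 36 with 1 library left out, the lowest without control replicate 2 or 3. The erythroid list had 0 higher with library totals, without a low-count filter and with limma-voom, and 0 to 4 with 1 library left out. The muscle list had 1 higher in those 3 settings and 1 to 4 with 1 library left out. The myeloid list had 2 higher with median-of-ratios factors, upper-quartile factors and without the most abundant miRNA, and 1 to 2 with 1 library left out. The causes were not tested. Whether replicate numbers pair the samples cannot be told from so few libraries. The correlations of same-numbered deviations were 0.10, −0.02 and 0.23, the last being the highest of any pair. Not every sample correlated best with its own number. With the replicate block the log2 fold change was −1.47 for miR-191-5p and −1.79 for miR-425-5p, the number of hairpins passing for their strand ratio was 33, and the counts of tested miRNAs were 127 higher and 171 lower. Depth limits miR-191-3p, at 20 to 33 reads in irradiated libraries.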
